A study of Mus musculus with 14 samples.

Results

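Hepatic expression of 9 genes of glucose uptake and glycogen metabolism was compared between compression and no-compression mice. The genes were Slc2a2, Gys2, Ugp2, Gbe1, Ppp1r3b, Ppp1r3c, Pygl, Pklr and Txnip. They were picked by the gene symbol of the array platform, with the probe set of the highest mean for each gene. Each of the 9 symbols had 1 probe set, so the group consisted of 9 of the 22206 probe sets tested, which carry 19505 named genes.

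The liver takes up glucose after feeding, stores it as glycogen and releases it again between meals. Slc2a2 encodes GLUT2, the glucose transporter of the hepatocyte surface. Ugp2 makes UDP-glucose, from which Gys2, the glycogen synthase of liver, builds chains that Gbe1 branches, while Pygl, the liver glycogen phosphorylase, takes glucose units off. Ppp1r3b and Ppp1r3c encode subunits that bring protein phosphatase 1 to glycogen, where it activates the synthase. Pklr encodes the pyruvate kinase of liver glycolysis, and Txnip a protein that limits glucose uptake. Both of these genes are known targets of the glucose-responsive factor ChREBP.

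Livers came from male C57BL/6N mice given as 10 weeks old, which the study's methods state as the age at purchase. Acclimation to the cages, the clothes and the metabolic chambers came before compression, and all mice wore adjustable clothes. In the compression group (n = 7) the clothes were tightened around the trunk for 8 hours, and in the no-compression group (n = 7) they were worn without tightening. Each liver gave 200 ng of total RNA for 1 Clariom S mouse array, which reads each gene with a set of short probes. The labels give no litter, cage or batch.

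The deposited values were log2 expression values from qFarms, a summary that flattens a gene whose probes do not rise and fall as one. The SD between arrays had a median of 1.04e-05 over all probe sets, and 1238 exceeded an SD of 0.01. Those, called probe sets with spread here, included all 9 genes. The size of a change can be compared between genes only with this in mind, because the summary scales each probe set by itself. Array medians were 6.51 to 6.52. On the first principal component of these 1238 probe sets, with 57.1% of their variance, no-compression replicates 6, 3 and 7 had values of 16.7, 9.57 and 9.45, against 2.25 or less in every other array. Results are therefore given with and without these 3 arrays. The 6 hepatocyte markers averaged 12.90 to 12.93 in compression livers and 12.90 to 12.93 in no-compression livers. Markers of cholangiocytes, lymphocytes, muscle, fat and pancreas had no probe set with spread. The 6 Kupffer cell markers averaged 8.05 to 8.19 in compression livers and 8.06 to 8.31 in no-compression livers, and the 4 measured neutrophil markers 6.01 to 6.05 in compression livers and 5.98 to 6.23 in no-compression livers. Sinusoidal endothelial markers averaged 8.68 to 8.82 in compression livers and 8.69 to 8.81 in no-compression livers, and stellate cell markers 7.77 to 7.81 in compression livers and 7.77 to 7.79 in no-compression livers. Alas2, the 1 erythroid marker measured, had 8.79 to 9.16 in compression livers and 8.58 to 9.24 in no-compression livers. Spread was present in 2 of the 6 hepatocyte, 3 of the 6 Kupffer cell and 2 of the 4 neutrophil markers. It was present in 1 of 6 sinusoidal endothelial and 1 of 6 stellate cell markers. The summary held the other markers nearly constant, so near-equal list means say little about cell content. The part of these cells in the results was not tested. In bulk liver, fewer cells of a type and less RNA per cell cannot be told apart.

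Promoter windows of 250 bases before and 50 bases after a start site were at hand from RefSeq (GRCm38.p6) for 7 of the 9 genes (9 windows), and Gys2 and Ppp1r3b were not searched. They were searched on both strands for an E-box (CACGTG), a carbohydrate response element (CACGNG and CNCGNG with 5 free bases between them), a FOXO motif (GTAAACA) and a CRE (TGACGTCA). The carbohydrate response element stood in 0.365% of 32851 mouse promoter windows, the E-box in 7.15%, the FOXO motif in 3.65% and the CRE in 1.79%. One Pklr window held the element at bases −170 to −154 from the start site, and Txnip held it at −85 to −69 with a FOXO motif at −121 to −115. Ppp1r3c held an E-box at −104 to −99. No other window of the 7 genes held any of the 4 patterns. The stretches are shown because Pklr and Txnip, whose values are set side by side below, share this element, with the matched letters in capitals.
Pklr, chr3:89136413-89136509, strand plus: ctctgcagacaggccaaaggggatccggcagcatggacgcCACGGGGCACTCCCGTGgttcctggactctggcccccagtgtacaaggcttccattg
Txnip, chr3:96557832-96557928, strand plus: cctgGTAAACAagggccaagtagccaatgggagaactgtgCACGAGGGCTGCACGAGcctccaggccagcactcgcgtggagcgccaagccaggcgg
Ppp1r3c, chr19:36736663-36736748, strand minus: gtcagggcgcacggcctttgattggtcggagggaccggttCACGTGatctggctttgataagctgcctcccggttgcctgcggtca
A match of letters is a description and not a measured binding site.

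All 9 genes had a higher mean in the compression livers, by a log2 fold change of 0.05 for Pygl to 0.52 for Slc2a2. Among the probe sets with spread the mean was higher with compression in 48.3%. The median log2 fold change was 0.18 over the 9 genes and −0.0029 over the probe sets with spread. None of the 9 passed limma after Benjamini-Hochberg adjustment over all 22206 probe sets, and neither did any other probe set (0% called, lowest adjusted p = 0.300). Before adjustment, 1 of the 9 genes, Gys2, had a limma p under 0.05 and a higher mean, against 2.73% of all probe sets. By an exact permutation test over the 14 arrays, two-sided, Gys2 was again the only one, against 2.49% of all probe sets. The smallest p that this test allows is 0.000583. Since limma called no gene, the fold changes below are differences of means that did not pass the test.

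**Figure D1:**
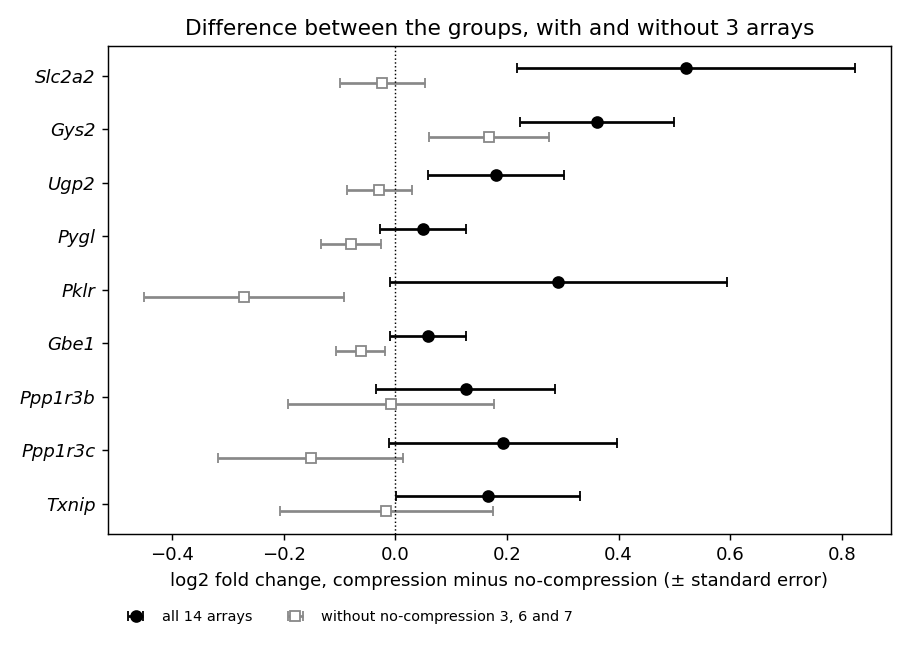
Log2 fold change of each gene, compression minus no-compression, with the standard error of limma as bars, over all 14 arrays (black circles) and without no-compression replicates 3, 6 and 7 (grey squares). All 9 black circles lie above 0, from 0.05 to 0.52, and only the grey square of Gys2, at 0.17, does.

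The rank products method, which ranks all probe sets by fold change within pairs of arrays, called 7 of the 9 genes higher at an FDR of 0.01 and none lower. Over the whole array it called 1.31% of the probe sets higher. The 7 were all but Pygl and Gbe1, those with the narrowest ranges between livers. Of the 553 probe sets that rank products called in either direction, 542 had spread, and when the method ranked only the probe sets with spread it called 3 of 1238 (0.242%), none of them among the 9. Without no-compression replicates 3, 6 and 7 it called 43 of 22206 (0.194%), again none of the 9. With so few calls over the whole array, a count of 0 of 9 is near the background share.

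Slc2a2, the glucose transporter, had log2 values of 12.22 to 12.67 in the compression livers (median 12.57) and of 10.45 to 12.62 in the no-compression livers (median 12.51). The means were 12.54 ± 0.15 in compression livers and 12.02 ± 0.80 in no-compression livers (SD, n = 7 each). The log2 fold change was 0.52 ± 0.303 (SE), or 1.43-fold, with a limma adjusted p = 0.943 and an exact permutation p = 0.0950. The groups overlapped, and the lower mean of the no-compression group lay in replicates 6, 3 and 7, at 10.45, 11.55 and 11.87, while its other 4 livers averaged 12.56 ± 0.05. Without these 3 arrays the log2 fold change was −0.02 ± 0.0766 (SE). Slc2a2 also had the widest range of the 9, 4.65-fold between the highest and the lowest liver.

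Gys2, the glycogen synthase, had values of 9.60 to 10.21 in the compression livers (median 9.90) and of 8.92 to 9.95 in the no-compression livers (median 9.60). The means were 9.90 ± 0.19 in compression livers and 9.53 ± 0.32 in no-compression livers (SD, n = 7 each), a 1.28-fold difference. The log2 fold change was 0.36 ± 0.138 (SE), with a limma p = 0.0215 before and an adjusted p = 0.943 after adjustment, and an exact permutation p = 0.0157. Of the 9 genes only Gys2 kept a higher mean with compression without no-compression replicates 3, 6 and 7, at 0.17 ± 0.108 (SE). Compression replicate 4 had the highest value of all 14 livers, and 3 no-compression livers lay below every compression liver.

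Ugp2, which supplies UDP-glucose, ranged over 10.64 to 10.89 with compression (median 10.82) and 10.02 to 10.97 without it (median 10.72). Its means were 10.80 ± 0.09 and 10.62 ± 0.32 in compression and no-compression livers (SD, n = 7 each), and its log2 fold change was 0.18 ± 0.122 (SE, limma adjusted p = 0.950). The highest liver, no-compression replicate 1, and the lowest, no-compression replicate 6, belonged to the same group. Gbe1, the branching enzyme, ranged over 8.19 to 8.43 with compression (median 8.36) and 8.05 to 8.43 without it (median 8.38). Its log2 fold change was 0.06 ± 0.0681 (SE, limma adjusted p = 0.979). The values of Gbe1 differed by 1.31-fold at most between any livers, the least of the 9 genes. Without no-compression replicates 3, 6 and 7 the fold changes were −0.03 ± 0.0582 for Ugp2 and −0.06 ± 0.0444 for Gbe1 (SE).

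**Figure D2:**
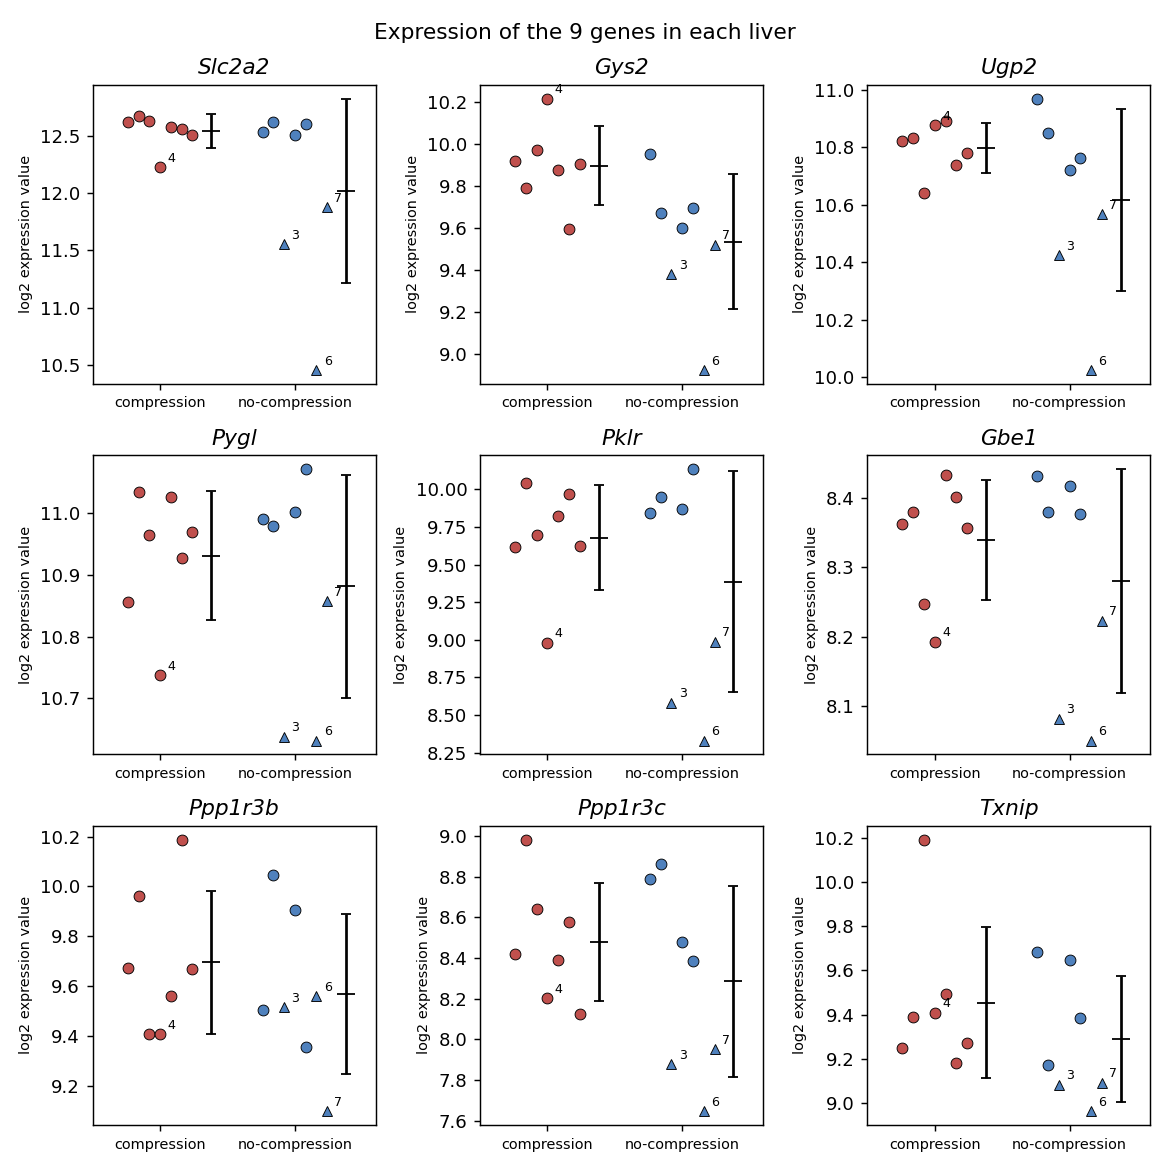
Log2 expression value of each gene in each of the 7 compression (red) and 7 no-compression (blue) livers, with the group mean and SD as bars. Triangles mark no-compression replicates 3, 6 and 7, and the number 4 marks compression replicate 4. No-compression replicate 6 is the lowest point for every gene but Ppp1r3b.

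For both targeting subunits of protein phosphatase 1 the difference of the group means was smaller than the SD within each group. Ppp1r3b, the main subunit of this kind in liver, ranged over 9.41 to 10.19 with compression (median 9.67) and 9.10 to 10.05 without it (median 9.52). The means were 9.69 ± 0.29 in compression livers and 9.57 ± 0.32 in no-compression livers (SD, n = 7 each), and the log2 fold change was 0.13 ± 0.160 (SE, limma adjusted p = 0.983). Ppp1r3b was the only gene whose lowest value was not in no-compression replicate 6, which at 9.56 lay in the middle of the 14 livers. Ppp1r3c ranged over 8.12 to 8.98 with compression (median 8.42) and 7.65 to 8.86 without it (median 8.39). Its log2 fold change was 0.19 ± 0.204 (SE, limma adjusted p = 0.979), and without no-compression replicates 3, 6 and 7 it was −0.15 ± 0.166 (SE). These 3 livers were the 3 lowest of all 14 for Ppp1r3c, at 7.88, 7.65 and 7.95. For Ppp1r3b the fold change without them was −0.01 ± 0.184 (SE). The value for Ppp1r3b also depended on single livers, at 0.04 without compression replicate 6, 0.05 without no-compression replicate 7, 0.08 without compression replicate 2 and 0.21 without no-compression replicate 2.

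Pygl, which breaks glycogen down, had the smallest difference of the 9. Its values were 10.74 to 11.03 with compression (median 10.96) and 10.63 to 11.07 without it (median 10.98), and the log2 fold change was 0.05 ± 0.0771 (SE, limma adjusted p = 0.985). The difference of the group medians had the opposite sign, −0.02. Without no-compression replicates 3, 6 and 7 the log2 fold change was −0.08 ± 0.0541 (SE). The lowest compression value, 10.74 in replicate 4, stood close to 10.64 and 10.63 in no-compression replicates 3 and 6.

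Pklr, the pyruvate kinase, ranged over 8.98 to 10.04 with compression (median 9.69) and 8.33 to 10.13 without it (median 9.84). The means were 9.68 ± 0.35 in compression livers and 9.38 ± 0.73 in no-compression livers (SD, n = 7 each), and the log2 fold change was 0.29 ± 0.301 (SE, limma adjusted p = 0.979). Mean and median again pointed apart, with a difference of the medians of −0.15. No-compression replicates 3, 6 and 7 stood at 8.58, 8.33 and 8.99, next to compression replicate 4 at 8.98, and the remaining 4 no-compression livers averaged 9.95 ± 0.13. Without the 3 arrays Pklr was at a log2 fold change of −0.27 ± 0.180 (SE), the most negative of the 9 genes.

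Txnip ranged over 9.18 to 10.19 with compression (median 9.39) and 8.96 to 9.68 without it (median 9.17). The means were 9.45 ± 0.34 in compression livers and 9.29 ± 0.29 in no-compression livers (SD, n = 7 each), and the log2 fold change was 0.17 ± 0.165 (SE, limma adjusted p = 0.979). Its highest value, 10.19 in compression replicate 3, stood apart from the other 6 compression livers, which lay at 9.49 or below. The log2 fold change was 0.04 without that liver and −0.02 ± 0.190 (SE) without no-compression replicates 3, 6 and 7. Txnip and Pklr share the carbohydrate response element shown above. Over the 14 livers the Pearson r of this pair was 0.462 (permutation p = 0.0933). It was 0.749 within the no-compression livers, which include replicates 3, 6 and 7 (exact permutation p = 0.0683, adjusted p = 0.0945). Within the compression livers it was −0.0430 (exact permutation p = 0.893). Over the 11 livers without no-compression replicates 3, 6 and 7 it was −0.0777 (permutation p = 0.791). Compression replicate 4, the lowest of its group for Pklr, was at 9.41 for Txnip, above the group median. Whether the element bears on these values was not tested.

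No-compression replicate 6 had the lowest value of all 14 livers for 8 of the 9 genes, and no-compression replicate 3 the second lowest for the same 8. No-compression replicates 3, 6 and 7 lay below the median of the 14 livers for all 9 genes. Averaged over the 9 genes, the deviation from that median was −0.76 in replicate 6, −0.48 in replicate 3 and −0.36 in replicate 7. The next lowest was compression replicate 4 at −0.13, and the highest was compression replicate 2 at 0.18. Since no-compression replicates 3, 6 and 7 are of the same group and low for these genes, leaving them out by itself lowers the fold changes. Without these 3 arrays 1 of the 9 genes had a higher mean with compression, against 46% of the probe sets with spread. The median log2 fold change was then −0.03 over the 9 genes and −0.00382 over the probe sets with spread. Leaving out no-compression replicate 6 alone gave a higher mean with compression for all 9 genes, with a log2 fold change of 0.26 for Slc2a2, 0.08 for Ugp2, 0.01 for Pygl, 0.12 for Pklr, 0.02 for Gbe1 and 0.09 for Ppp1r3c and a median of 0.11 over the 9. Limma adjusted p-values without the 3 arrays were 0.992 or higher for all 9 genes. No value of the labels tells these 3 livers from the other 4 of their group, and what sets them apart was not tested.

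**Figure D3:**
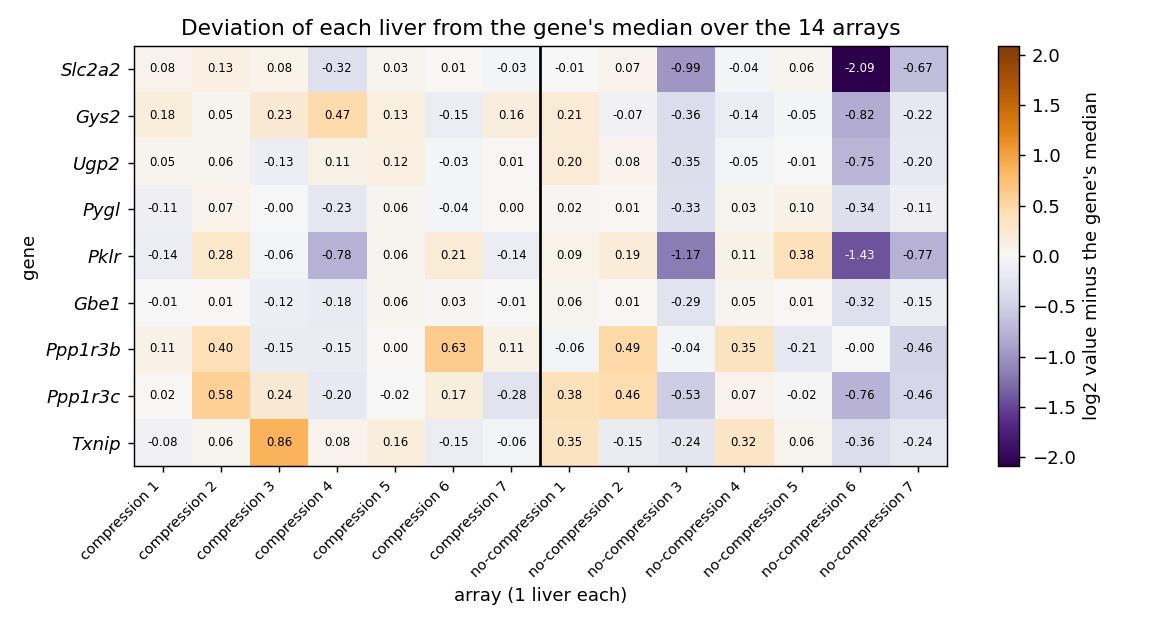
Deviation of each liver (columns, compression left of the line) from the median of each gene (rows) over the 14 arrays, in log2 units. No-compression replicates 3, 6 and 7 are below the median in all 9 rows, down to −2.09 for Slc2a2, and compression replicate 4 joins low Pklr (−0.78) with high Gys2 (0.47).

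The 9 genes form 36 pairs, whose correlation was computed over the 14 arrays with a permutation p and Benjamini-Hochberg adjustment over the 36. The median Pearson r was 0.563 and the median Spearman rho was 0.499. Of the 36 pairs 34 were positive, and 17 passed an adjusted p of 0.05 by Pearson and 9 by Spearman. The share that passes among pairs of other probe sets with spread was not computed. These counts, and those within the groups below, therefore do not show a relation particular to the 9 genes. The closest pair was Pygl and Pklr, with r = 0.947 (permutation p = 1e-05, the smallest that 100000 resamples can give, adjusted p = 0.00018) and rho = 0.859 (permutation adjusted p = 0.00828). Without the 2 livers farthest from the median of Pygl, r was 0.860. Pklr and Gbe1 followed with r = 0.936 (permutation adjusted p = 0.00027) and rho = 0.741 (permutation adjusted p = 0.0208), and r was 0.821 without the 2 farthest livers. Slc2a2 and Ugp2 had r = 0.916 (permutation adjusted p = 0.00216) but rho = 0.446 (permutation adjusted p = 0.166), and r was 0.441 without the 2 farthest livers, so that this relation rested on those. Over the deviations from the group means, the median r of the 36 pairs was 0.523.

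The pooled values joined livers that stand apart, so the pairs were also computed within the groups. The livers that stand apart all belong to the no-compression group, so the values within that group still include them. Within the 7 no-compression livers all 36 pairs were positive, with a median r of 0.851, and 22 passed the exact permutation test after adjustment by Pearson and 10 by Spearman. Within the 7 compression livers the median r was 0.221, with 21 pairs positive and 15 negative, and none passed. Over the 11 livers without no-compression replicates 3, 6 and 7 the median r was 0.145, with 22 pairs positive and 14 negative, and 2 passed by Pearson and none by Spearman. The difference between the groups in these medians was not tested. Among the no-compression livers Ppp1r3b stood apart from the other genes, with a median r of 0.243 with them, against 0.742 or higher for each of the others.

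**Figure D4:**
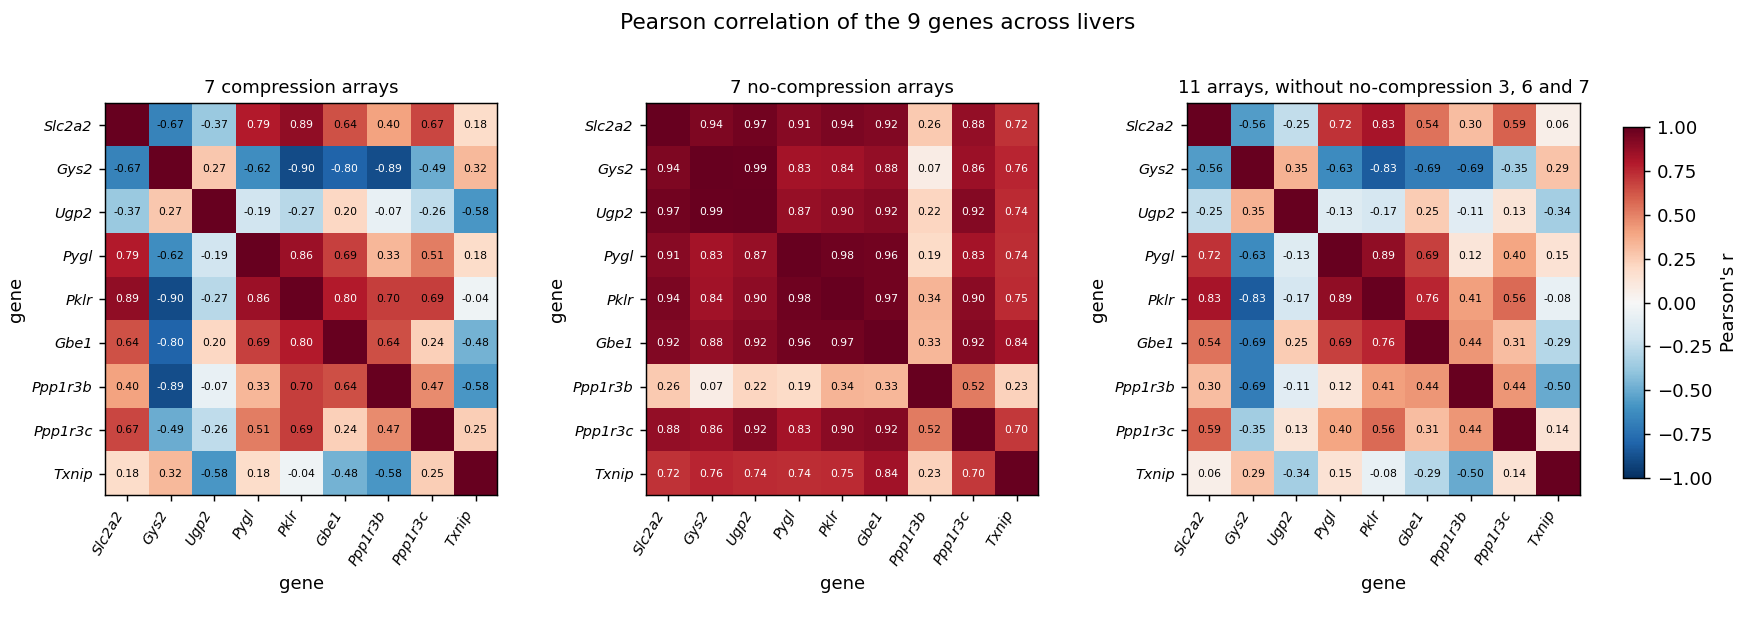
Pearson r of each pair of the 9 genes over the 7 compression livers, the 7 no-compression livers and the 11 livers without no-compression replicates 3, 6 and 7. The middle panel is positive throughout (median 0.851), and the row of Gys2 is mostly negative in the other panels, down to −0.898 with Pklr in compression livers.

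The 2 pairs that passed over the 11 livers were Pygl with Pklr, at r = 0.887 (permutation adjusted p = 0.0295), and Gys2 with Pklr, at r = −0.833 (permutation adjusted p = 0.0295). For Pygl and Pklr rho was 0.718 (permutation adjusted p = 0.288), and r was 0.526 without the 2 livers farthest from the median of Pygl. For Gys2 and Pklr rho was −0.755 (permutation adjusted p = 0.288), and r was −0.658 without the 2 farthest livers of Gys2. Gys2 was thus higher in those of the 11 livers that had less Pklr. Within the 7 compression livers Gys2 had r = −0.898 with Pklr (exact permutation p = 0.00853, adjusted p = 0.154) and r = −0.890 with Ppp1r3b (exact permutation p = 0.00437, adjusted p = 0.154), neither of which passed after adjustment. Within the 7 no-compression livers the first of these pairs ran the other way, with r = 0.843 (exact permutation adjusted p = 0.0124), and the second had r = 0.0742. The first value includes no-compression replicates 3, 6 and 7, the lowest of that group for both Gys2 and Pklr.

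Compression replicate 4 took part in this pattern. It had the lowest values of its group for Slc2a2 (12.22), Pygl (10.74), Pklr (8.98), Gbe1 (8.19) and Ppp1r3b (9.41, level with replicate 3 at this rounding), and the highest of all 14 livers for Gys2 (10.21). Without it, the remaining 6 compression livers gave r = −0.755 for Gys2 and Pklr (exact permutation adjusted p = 0.5375). For Gys2 and Ppp1r3b they gave r = −0.944 (exact permutation adjusted p = 0.3). Neither passed, and rho was −0.771 for each. Over the 10 livers without it and without no-compression replicates 3, 6 and 7, r was −0.670 and −0.662, with a permutation adjusted p = 0.378 for each. The relation of Slc2a2 with Pklr depended on compression replicate 4 more: r was 0.887 over the 7 compression livers and 0.372 over the 6 without it.

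**Figure D5:**
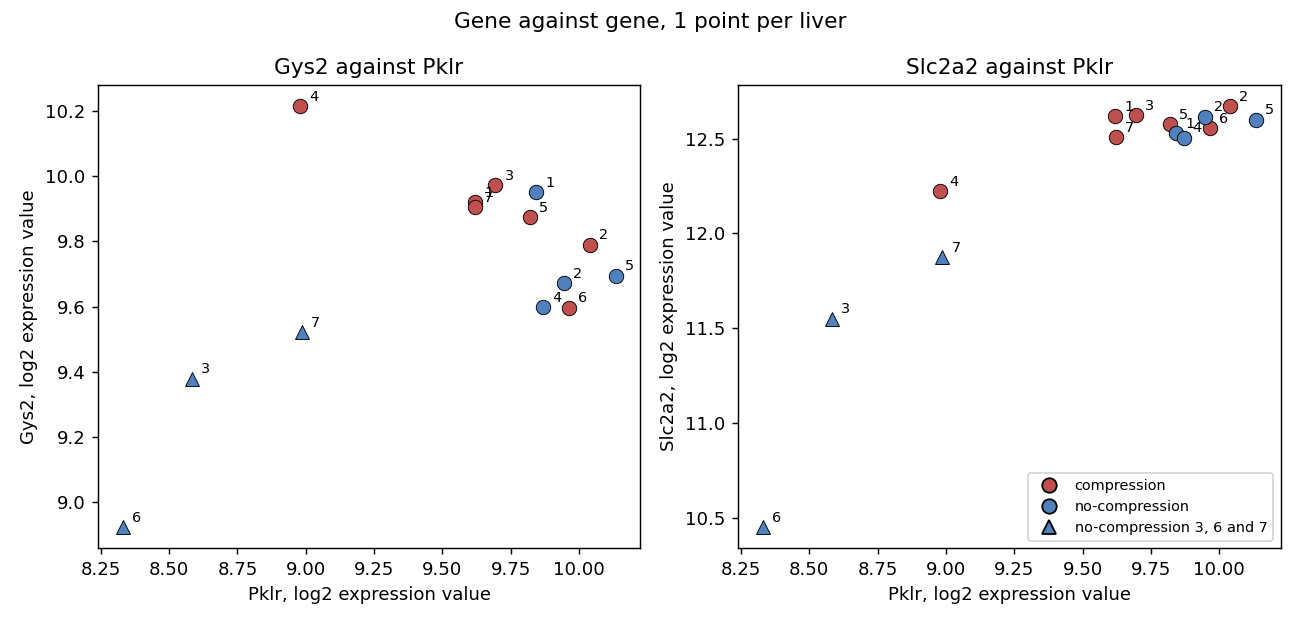
Gys2 (left panel) and Slc2a2 (right panel) against Pklr, in log2 units, with 1 point per liver and its replicate number, compression in red, no-compression in blue and no-compression replicates 3, 6 and 7 as triangles. In the left panel compression replicate 4 stands at the top left, at 10.21 for Gys2, and the triangles at the bottom left, down to 8.92.

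Among 1064 other named probe sets with spread, the 3 whose values ran most like each gene over the 14 livers were sought. Gys2 ran most like Ppara, the fatty acid receptor that controls fasting genes (r = 0.928), Cpt1a, the carnitine palmitoyltransferase of fatty acid oxidation (r = 0.913), and Abcc2, an organic anion transporter (r = 0.911). Over the 7 compression livers alone these values were 0.568, 0.779 and 0.645. Pklr ran most like Olfml1 (r = 0.969), Nxpe2 (r = 0.959) and Khk, the ketohexokinase of fructose use (r = 0.959), and Khk kept r = 0.903 over the 7 compression livers. Pygl ran most like Tkfc, the triokinase that acts after Khk (r = 0.968), Cited2 (r = 0.953) and Olfml1 (r = 0.932), with r = 0.958 for Tkfc over the compression livers.

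Paqr7, the cytochrome Cyp2c54 and the sulfotransferase Sult2a8 ran most like Slc2a2, with r of 0.978, 0.972 and 0.970. Ugp2 ran most like Tprkb (r = 0.956), Cat, the catalase (r = 0.954), and Enpp5 (r = 0.951), and Gbe1 most like Hspb6 (r = 0.963), Akr1c14 (r = 0.961) and Olfml1 (r = 0.950). For Ppp1r3c the 3 were C8g (r = 0.912), Arrdc2 (r = 0.908) and Pfkfb3, a kinase that drives glycolysis (r = 0.890). Txnip had lower values, with Slc25a47 (r = 0.852), Pdha1 of pyruvate dehydrogenase (r = 0.850) and Dcn (r = 0.823), and Ppp1r3b the lowest, with Epha2 (r = 0.789), Slc45a3 (r = 0.786) and Thrsp, a gene of fat synthesis (r = 0.669). All these values share the 14 livers, including the 3 that stand apart, and are descriptions without a test.

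Other genes of the same pathways were read from lists of sugar metabolism. No member of any list passed limma after adjustment. Of 13 hexose transport genes 4 had spread, and all 4 had a higher mean with compression, against 48.3% of all probe sets with spread. Their median log2 fold change was 0.28. Besides Slc2a2 these included Slc2a9, a carrier of urate and sugars, at 8.95 ± 0.06 in compression livers and 8.65 ± 0.30 in no-compression livers (SD, n = 7 each), a log2 fold change of 0.30 ± 0.113 (SE, limma adjusted p = 0.943). Slc37a4, the glucose 6-phosphate carrier of the endoplasmic reticulum, differed by a log2 value of 0.26 ± 0.117 (SE, limma adjusted p = 0.943). Without no-compression replicates 3, 6 and 7 these were 0.09 and 0.02. The count of hexose transport genes with a higher mean was then 3 of 4, against 46%, at a median of 0.06.

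The lists of glycogen synthesis, with 11 measured genes, and of glycogen phosphatase and kinase control, with 12, had no probe set with spread outside the 9 genes, so the array gives no information on a change of the others. Of 9 measured genes of glycogen breakdown, Phka2, a subunit of phosphorylase kinase, and Gaa, the lysosomal glucosidase, had spread beside Pygl, with log2 fold changes of 0.06 ± 0.0486 and −0.03 ± 0.0396 (SE). Both turned without no-compression replicates 3, 6 and 7, to −0.02 for Phka2 and 0.03 for Gaa. Of 6 glycolysis genes with spread 5 had a higher mean with compression, against 48.3% of all probe sets with spread. Without no-compression replicates 3, 6 and 7 the count was 0 of 6, against 46%. Aldoc, an aldolase, was at 0.24 ± 0.287 with these arrays and at −0.20 without them, and Khk at 0.17 ± 0.116 and −0.05.

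Of 8 genes with spread in the list of the carbohydrate response, which holds Pklr and Txnip, 4 had a higher and 4 a lower mean with compression. Beside the counts of this paragraph, 48.3% of all probe sets with spread had a higher mean, and 46% without no-compression replicates 3, 6 and 7. Fasn and Acly, which make fatty acids and their precursor, had log2 fold changes of −0.35 ± 0.271 and −0.31 ± 0.150 (SE). Without no-compression replicates 3, 6 and 7 all 8 had a lower mean with compression, at a median of −0.12, with Fasn at −0.49 and Acly at −0.11. Pklr, Khk and Tkfc belong to this list and to that of glycolysis, so the counts of these lists overlap. The list of gluconeogenesis also overlaps with this list, and with that of hexose transport through Slc37a4. Among 6 gluconeogenesis genes with spread 3 had a higher and 3 a lower mean. The higher ones included Slc37a4, at 0.26 ± 0.117, and the lower ones Fbp1, a fructose bisphosphatase, at −0.07 ± 0.0375 (SE). Without the 3 arrays 4 had a higher and 2 a lower mean, with Slc37a4 at 0.02 and Fbp1 at −0.00119. The 3 genes of insulin and glucagon signalling with spread had lower means, including Igfbp1, an insulin-repressed binding protein, at −0.33 ± 0.366, and Irs2, an insulin receptor substrate, at −0.05 ± 0.161 (SE). Without the 3 arrays 1 of these 3 had a higher mean, with Irs2 at 0.07 and Igfbp1 at −0.03.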

How the data were processed

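RNA of 14 livers (7 compression, 7 no-compression) was measured on 14 Clariom S mouse arrays, 1 per mouse. The authors made the deposited log2 expression values with qFarms (quantile normalization and a factor analysis of the probes of each probe set) in R 3.4.4, per the labels and the study's methods. These values were used unchanged. Of 29129 rows 6923 control rows were left out. The platform annotation named 1 gene for 19572 of the other 22206 probe sets and none for 2634. Arrays have no read depth, and their number sets the precision.

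The main test was limma 3.58.1, run with lmFit and eBayes in R 4.3.3, with p-values adjusted by Benjamini-Hochberg over all 22206 probe sets and a limit of 0.05. An exact permutation test, two-sided, was run beside it in Python 3.11.15 (numpy 2.4.6, scipy 1.17.1, pandas 2.3.3, matplotlib 3.10.9). The rank products method that the study's methods name (FDR limit 0.01, 49 random pairings) was written anew as an alternative, because it takes no account of the nearly constant values of most probe sets. Correlations had 100000 resamples, or all orders with 7 arrays or fewer. The limma script was tested on simulated data. Limma set the difference of the group means against the spread between mice within the groups. The permutation tests reassigned the arrays, with both groups pooled wherever arrays of both were used. All p-values describe these 14 mice.

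The 9 genes, the lists of other genes and the 3 arrays left out together were chosen with earlier results of these data known. By the rule for named genes, the text names the 9 genes, from each list up to 2 others with spread and the largest absolute fold change, and for each of the 9 the 3 probe sets most correlated with it. Cell type lists with spread are given as ranges of the list mean. Promoter sequences are those of RefSeq, GRCm38.p6. Array probe positions were not used here.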

Additional observations from a re-analysis of the deposited data

Results flagged for a closer look

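Of 18 sets of values, 9 genes in each of the groups of 7 livers, 3 held a liver far from the rest of its group by Dixon's test, and chance flags about 5% of such sets. All 3 lay in the compression group. Slc2a2 had its lowest compression value in replicate 4, at 12.22, where the other 6 livers lay between 12.51 and 12.67. Pklr had its lowest compression value in the same liver, at 8.98, where the others lay between 9.62 and 10.04. Txnip had its highest compression value in replicate 3, at 10.19, where the others lay between 9.18 and 9.49. In the no-compression group the low values of replicates 3, 6 and 7 did not stand apart by this test, which reads a single liver against the nearest one.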

How the results depend on the processing

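Of 189 fold changes of the 9 genes, over 21 settings of the processing with a test, 181 kept their direction and their side of the limit, and of 9 differences of group medians, which have no test, 6 kept their direction. Without no-compression replicates 3, 6 and 7 the log2 fold change was −0.0237 for Slc2a2, −0.0287 for Ugp2, −0.0798 for Pygl, −0.271 for Pklr, −0.0625 for Gbe1, −0.0083 for Ppp1r3b, −0.152 for Ppp1r3c and −0.0163 for Txnip, the number of genes with a higher mean was 1 of 9 and the median fold change was −0.0287. With group medians it was −0.0153 for Pygl, −0.149 for Pklr and −0.0155 for Gbe1. The cause was not tested. Leaving out each liver in turn turned no gene, and the median fold change lay between 0.11 and 0.24. Rank products called 553 probe sets, against 0 with limma, 3 when only those with spread were ranked and 43 without no-compression replicates 3, 6 and 7. Limma called 0 under every other setting, with 1152 probe sets at an unadjusted p under 0.05 and 1062 by the exact permutation test, and the lowest adjusted p of the 9 genes under any setting was 0.360. The median correlation of the 36 pairs was 0.145 without no-compression replicates 3, 6 and 7, 0.221 in the compression group, 0.140 there without replicate 4, 0.102 without all 4 of these arrays, and 0.515 to 0.752 when each liver was left out in turn, the highest without compression replicate 4. Settings without compression replicate 4 and the 2 restricted rank products runs were chosen after seeing the data. The labels do not say whether arrays with the same number share more than that number. The deviations of such pairs correlated at −0.488 to 0.336 and 1 of 7 correlated best with its own, which does not settle the question. The fit with the replicate block called 0 probe sets. The choice between several probe sets of a gene could not be tried, because each gene had 1. The number of arrays and the summary of the probes limit what these data can show.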
